A study of Mus musculus with 100 samples.

Results

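Synaptic vesicle and release machinery genes were followed in RNA-seq libraries made from mouse stem cells, from several kinds of culture derived from them, and from embryos. The set lists 34 presynaptic genes by name. It was chosen for what the proteins do and not by a threshold on a measured value, but with earlier results of these data known. A value was found for 33 of the 34, among 23109 gene-level entries, and Syt5 was not analysed here. The deposited tables cover 37 libraries in 18 groups, of which 3 groups hold 1 library, 11 hold 2 and 4 hold 3.

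All cultured cells are labelled Mll3-/-. The reference cells are also Mll4flox/flox (called flox here) and the compared cells Mll4KI/KI (called KI). The labels do not spell out KI. The study's title speaks of the methyltransferase activities of MLL3 and MLL4, enzymes that methylate histone H3 at enhancers. Stem cells (day 0) and embryoid bodies, which are aggregates that differentiate in suspension (days 4 and 10), gave 1 flox library per day and 2 KI libraries. Neural cultures are aggregates treated with retinoic acid and harvested as progenitors at day 8, or dissociated, plated and harvested as neurons at day 16, with 2 libraries for each genotype and day. Trophectoderm cultures (day 6) carry an inducible CDX2 and extraembryonic endoderm cultures (day 5) received retinoic acid and activin A, again with 2 libraries per genotype. The KI culture replicates bear the numbers 27 and 48 in the titles and the flox replicates 1 and 2. Nothing in the labels says that same-group libraries are separate cultures, so p-values measure the spread between these libraries, which may be technical. Embryos were taken at E8.5 and E9.5, with 3 libraries per group. KI embryos are Mll3flox/KI;Mll4flox/KI;Sox2-Cre and controls Mll3flox/KI;Mll4flox/+;Sox2-Cre. Sox2-Cre recombines in the epiblast, from which the embryo proper forms, so both groups lose floxed alleles there.

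A nerve terminal stores transmitter in vesicles and releases it when calcium enters. Synapsins tether vesicles, and Rab3 proteins with RIM, Bassoon and Piccolo bring them to the active zone. Munc13 proteins (Unc13a, Unc13c) and CAPS (Cadps) prime them. A SNARE complex of synaptobrevin (Vamp1, Vamp2), syntaxin 1 (Stx1a) and SNAP-25 then fuses the membranes, held by complexins until a synaptotagmin binds calcium. Many of these genes carry an RE1 element, the binding sequence of the silencing factor REST, which represses neuronal genes outside neurons.

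Reads assigned to genes numbered 39015978 to 59880727 per neural library and 18908148 to 27555277 per library elsewhere. Levels are given as CPM, the reads of a gene per 1000000 of these reads. They depend on transcript length, so levels of different genes are compared only as the deposited RPKM. A count of 3 reads, taken as the floor, is 0.159 CPM in the shallowest library and 0.0501 CPM in the deepest. Kmt2c (Mll3) was counted at 27.6 to 99.4 CPM over the 37 libraries and Kmt2d (Mll4) at 149 to 334 CPM. The extent of the altered parts is not given in the sources used here, so these counts do not check the genotypes.

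From day 8 to day 16 of neural culture all 33 genes with a value rose in flox and all 33 rose in KI (edgeR quasi-likelihood test, Benjamini-Hochberg adjusted p under 0.05). Over all 16439 genes tested, 38.4% were called higher and 38.7% lower in flox, and 40.7% and 39.2% in KI. The median log2 fold change of the 33 genes was 3.23 in flox and 4.16 in KI, beside -0.02 and 0.01 over all genes. Their summed level went from 995 and 1003 CPM to 6516 and 6530 CPM in flox, and from 779 and 887 CPM to 8710 and 8831 CPM in KI. The 2 changes rest on different libraries, but filter, scaling and the estimate of spread came from 1 fit over all 8. In whole cultures more cells of a type and more RNA per cell cannot be told apart.

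**Figure D1:**
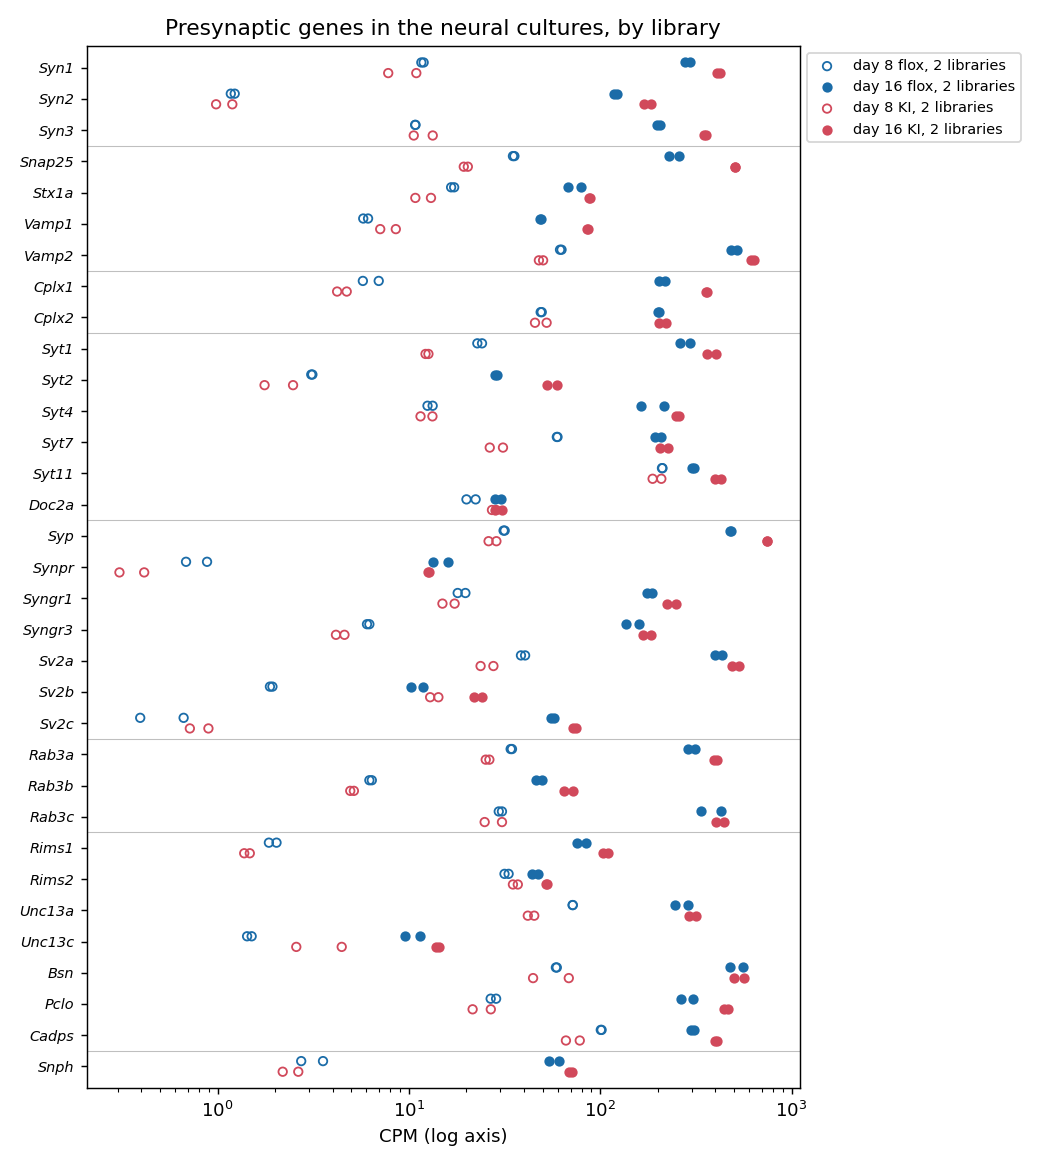
CPM of each of the 33 genes in the 8 neural libraries, on a log axis; open circles are day 8, filled circles day 16, blue flox and red KI, and grey lines separate functional classes. For 31 of the 33 genes all 4 day 16 libraries lie above all 4 day 8 libraries, beside 32.4% of all genes tested; Doc2a and Sv2b are the exceptions.

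All 4 SNARE genes rose in both genotypes. Snap25 was at 35.0 and 35.6 CPM in the flox day 8 libraries and at 257 and 228 CPM at day 16. In the KI libraries it was at 20.3 and 19.4 CPM at day 8 and at 507 and 507 CPM at day 16. The day 8 and day 16 libraries were far apart in each genotype, and the KI libraries were the lowest at day 8 and the highest at day 16. The log2 fold change was 2.81 ± 0.10 (SE) in flox and 4.88 ± 0.11 in KI, with adjusted p-values of 7.3e-11 and 1.9e-12.

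Vamp2, the main synaptobrevin of forebrain vesicles, was at 62.8 and 61.6 CPM in flox at day 8 and at 518 and 484 CPM at day 16. In KI it went from 50.3 and 47.8 CPM to 617 and 639 CPM. The log2 changes were 3.04 ± 0.10 and 3.88 ± 0.10. Stx1a, the syntaxin on the plasma membrane, moved least of the 4 SNARE genes in flox. It was at 16.6 and 17.2 CPM in flox at day 8 and 67.6 and 79.3 CPM at day 16, and in KI at 13.0 and 10.8 CPM and then 88.3 and 87.8 CPM. Its log2 changes were 2.15 ± 0.11 and 3.09 ± 0.12, and Vamp1 changed by 3.07 ± 0.11 and 3.66 ± 0.11.

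Synapsins, the phosphoproteins that hold the reserve vesicles, had among the largest changes. Syn1 was at 11.6 and 11.9 CPM in flox at day 8 and 277 and 295 CPM at day 16, and in KI at 10.9 and 7.80 CPM and then 425 and 406 CPM. Its log2 changes were 4.63 ± 0.14 and 5.68 ± 0.15. Syn2 was at 1.23 and 1.17 CPM in flox and 1.19 and 0.98 CPM in KI at day 8. It reached 122 and 119 CPM in flox and 184 and 168 CPM in KI. This gave log2 changes of 6.68 ± 0.12 and 7.54 ± 0.12, the largest of the 33 in KI. Syn3 rose by 4.26 ± 0.12 and 5.09 ± 0.12.

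Among vesicle membrane proteins, synaptophysin (Syp) was at 31.7 and 31.2 CPM in flox at day 8 and at 476 and 485 CPM at day 16. In KI it was at 28.7 and 26.1 CPM and then at 746 and 740 CPM. The day 8 values of the genotypes lay close together and the day 16 values apart, with log2 changes of 3.97 ± 0.10 and 4.97 ± 0.10. Sv2c, a member of the SV2 transporter-like glycoproteins, had the largest change of the 33 genes in flox. It went from 0.39 and 0.66 CPM to 57.3 and 55.3 CPM in flox and from 0.90 and 0.72 CPM to 72.2 and 75.0 CPM in KI. Its log2 changes were 6.73 ± 0.17 and 6.72 ± 0.16. The other vesicle membrane genes (Synpr, Syngr1, Syngr3, Sv2a, Sv2b) changed by 2.57 to 4.63 in flox and 0.96 to 5.53 in KI.

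Several synaptotagmins sense calcium, and Syt1 is the sensor of fast release in many forebrain neurons. Syt1 was at 24.1 and 22.8 CPM in flox at day 8 and 295 and 262 CPM at day 16, and in KI at 12.2 and 12.6 CPM and then 401 and 360 CPM. Its log2 changes were 3.60 ± 0.10 and 5.14 ± 0.11. Syt2, Syt4 and Syt7 rose by 3.23, 3.90 and 1.78 in flox and by 4.94, 4.56 and 3.12 in KI. Complexins clamp and promote fusion. Cplx1 went from 7.0 and 5.7 CPM to 204 and 218 CPM in flox and from 4.7 and 4.2 CPM to 356 and 360 CPM in KI, a log2 change of 5.09 ± 0.12 and 6.53 ± 0.13. Cplx2, the other complexin here, was at 45.6 to 52.5 CPM in the 4 day 8 libraries and rose by 2.07 ± 0.10 and 2.31 ± 0.10.

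At the active zone, Rims1, the RIM scaffold that links vesicles to calcium channels, went from 1.9 and 2.0 CPM to 76.0 and 84.2 CPM in flox and from 1.4 and 1.5 CPM to 103 and 110 CPM in KI. Its log2 changes were 5.39 ± 0.12 and 6.42 ± 0.13. Its paralog Rims2 rose by 0.53 ± 0.09 and 0.74 ± 0.09, from 31.6 to 37.1 CPM in the day 8 libraries to 44.1 to 52.8 CPM at day 16. The giant scaffolds Bassoon (Bsn) and Piccolo (Pclo) rose by 3.16 ± 0.17 and 3.40 ± 0.12 in flox, and by 3.44 ± 0.18 and 4.44 ± 0.13 in KI. The priming factors Unc13a, Unc13c and Cadps rose by 1.93, 2.87 and 1.62 in flox and by 3.01, 2.21 and 2.69 in KI. The 3 Rab3 genes, which code for vesicle GTPases, rose by 2.96 to 3.70 in flox and 3.96 to 4.16 in KI. Snph, a syntaxin binder that anchors axonal mitochondria, rose by 4.22 ± 0.14 and 5.06 ± 0.15.

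**Figure D2:**
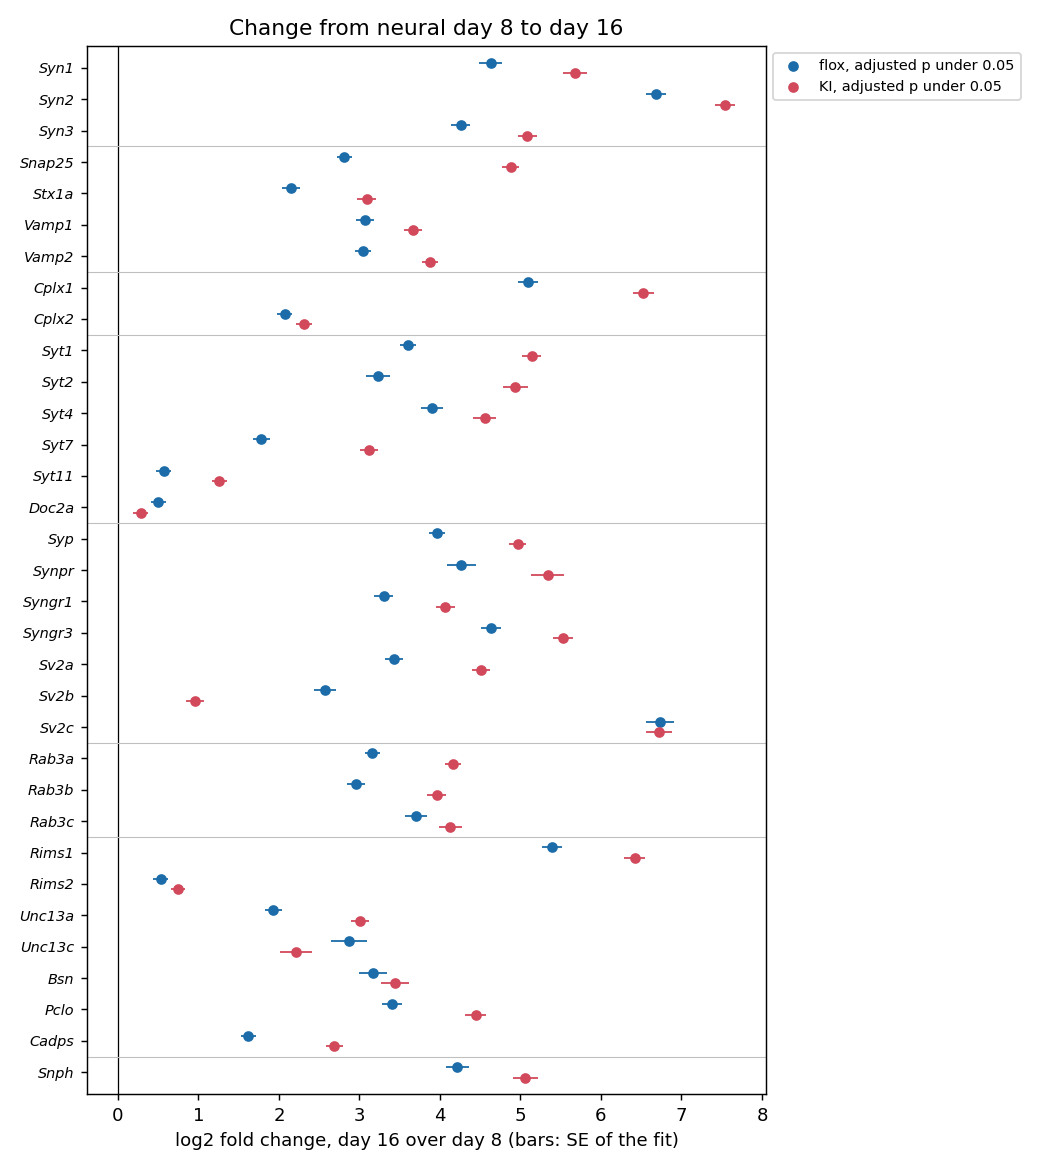
Log2 fold change from day 8 to day 16 for the 33 genes, in flox (blue) and KI (red), with the SE of the fit as bars; filled points passed the test. All points lie above 0, from 0.50 (Doc2a) to 6.73 (Sv2c) in flox and from 0.28 (Doc2a) to 7.54 (Syn2) in KI.

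The smallest changes in flox were those of Doc2a, Rims2 and Syt11, which are named here after their values were seen. Syt11, a synaptotagmin that does not bind calcium, was already at 188 to 212 CPM in the day 8 libraries and reached 300 to 426 CPM, a log2 change of 0.57 ± 0.09 in flox and 1.26 ± 0.09 in KI. Doc2a, a calcium sensor of asynchronous and spontaneous release, was at 22.3 and 20.0 CPM in flox at day 8 and 28.3 and 30.3 CPM at day 16. In KI it was at 28.6 and 27.2 CPM and then at 30.7 and 28.1 CPM, where the days overlapped. The KI call of Doc2a (adjusted p = 0.019) was lost without the day 16 library of KI 27 or the day 8 library of KI 48, with adjusted p-values of up to 0.083. Doc2a overlaps Ino80e, a subunit of a chromatin remodeller, in the RefSeq table. Ino80e was at 24.8 to 33.2 CPM in the 8 neural libraries. The use of strand is not given in the sources used here, so reads of these 2 genes cannot be told apart. Of the 33 genes, 6 overlap a protein-coding gene there: Syn1, Syn2, Syn3, Syt1, Doc2a and Unc13a.

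On the per-length scale (RPKM) the order of the genes changed with time. In flox at day 8 the highest were Syt11 at 29.9, Vamp2 at 18.6, Rab3a at 15.3, Cadps at 12.0 and Snap25 at 10.8 RPKM (means of 2 libraries). In flox at day 16 they were Vamp2 at 171, Rab3a at 153, Syp at 143, Snap25 at 84.7 and Sv2a at 78.9 RPKM. In KI at day 16 Syp led at 213 RPKM, followed by Vamp2 at 206, Rab3a at 196, Snap25 at 170 and Cplx1 at 116 RPKM. The lowest in both genotypes at day 16 was Unc13c, at 0.96 RPKM in flox and 1.24 RPKM in KI.

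Of 10 paralog pairs compared on that scale, 3 exchanged rank between the days and 7 kept their order in all 8 libraries. The RPKM ratio of Cplx1 to Cplx2 was 0.32 and 0.26 in flox and 0.20 and 0.21 in KI at day 8, and 2.28 and 2.42 in flox and 3.63 and 3.99 in KI at day 16. The ratio of Rims1 to Rims2 was 0.04 to 0.08 in the 4 day 8 libraries and 1.90 to 2.45 in the 4 day 16 libraries. For Syngr1 to Syngr3 it was 1.35 to 1.76 and then 0.55 to 0.69. In these 3 pairs the lower paralog at day 8 was the higher at day 16. Syn1 stayed above Syn2, with a ratio of 9.52 to 12.2 at day 8 and 2.71 to 2.98 at day 16. Syt1 stayed above Syt2, Vamp2 above Vamp1, Syp above Synpr, Sv2a above Sv2b, Unc13a above Unc13c and Rab3a above Rab3c.

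For 13 of the 33 genes the tables list several transcripts. Their flox day changes, from group means of CPM + 0.5, differed by a median of 0.08 on the log2 scale, and by under 0.1 in 7 genes. The largest spread, 1.07, was that of Syngr1, a synaptogyrin. Its transcript NM_207708 went from 18.9 to 182 CPM in flox and NM_009303 from 7.31 to 34.5 CPM. In KI the first went from 16.2 to 235 CPM and the second from 8.16 to 35.7 CPM. The log2 changes were 3.23 in flox and 3.82 in KI for the first, and 2.17 and 2.06 for the second. The tests of Syngr1 rest on NM_207708, the transcript with most reads.

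The RefSeq promoter table (GRCm38.p6; 250 bases before to 50 after the start) held 33 windows for 25 of the 34 genes. They were searched on both strands for the RE1 motif (17 bases, of which 15 have a defined letter), allowing 3 mismatches. Matches lay in 3 windows (9.09%), beside 1.17% of all 32851 windows. The sequences of these 3 windows are shown as the ones that hold a match, with the matching 17 bases in capitals, 5′ to 3′ on the strand of the gene. The window of Syn1 (chrX:20920869-20921168, minus strand) holds 1 mismatch, which only 19 windows of all 32851 match or better. Those of Syt2 (chr1:134646362-134646661, plus strand) and Unc13a (chr8:71671708-71672007, minus strand; motif on the opposite strand) hold 3 mismatches.
Syn1: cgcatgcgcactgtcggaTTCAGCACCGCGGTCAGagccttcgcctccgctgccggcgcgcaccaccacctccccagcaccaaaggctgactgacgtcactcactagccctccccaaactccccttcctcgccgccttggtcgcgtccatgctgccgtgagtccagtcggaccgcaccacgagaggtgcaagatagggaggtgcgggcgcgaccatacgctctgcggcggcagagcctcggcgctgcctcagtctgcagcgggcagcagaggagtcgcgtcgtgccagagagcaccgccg
Syt2: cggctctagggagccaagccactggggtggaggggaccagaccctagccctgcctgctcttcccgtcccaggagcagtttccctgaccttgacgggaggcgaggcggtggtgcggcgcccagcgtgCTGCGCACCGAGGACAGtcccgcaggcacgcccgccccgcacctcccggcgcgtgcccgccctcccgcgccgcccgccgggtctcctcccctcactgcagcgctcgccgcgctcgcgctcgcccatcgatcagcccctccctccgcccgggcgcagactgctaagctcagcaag
Unc13a: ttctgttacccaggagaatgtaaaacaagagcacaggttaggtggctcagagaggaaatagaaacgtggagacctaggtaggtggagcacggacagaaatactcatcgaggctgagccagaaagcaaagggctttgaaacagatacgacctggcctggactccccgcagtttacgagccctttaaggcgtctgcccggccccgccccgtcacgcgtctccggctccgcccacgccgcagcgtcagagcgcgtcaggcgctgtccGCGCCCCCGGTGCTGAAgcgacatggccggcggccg
A match is a description of the letters and not a measured binding site. The median GC content was 59.3% in the 33 windows and 52.7% in all.

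Other genes of the presynaptic terminal, outside the set, numbered 55 tested. From day 8 to day 16, 45 of the 55 were called higher and 8 lower in flox, and 46 and 8 in KI, with medians of 2.32 and 2.82. A separate list of Rest and its cofactors holds 6 genes, and all 6 fell in both genotypes. Rest was at 37.1 and 38.4 CPM in flox at day 8 and 22.6 and 22.2 CPM at day 16, and in KI at 35.7 and 32.2 CPM and then 9.6 and 9.5 CPM. Its log2 changes were -0.72 and -1.62, and those of the cofactor Rcor2 were -2.81 and -3.68. All 10 vesicle recycling genes (medians 3.34 and 4.11) and all 7 calcium channel subunits (medians 2.52 and 2.98) were called higher in both genotypes. Dnm3, a dynamin that cuts endocytic vesicles, rose by 5.01 and 6.41, and Cacna1e, a channel subunit, by 6.01 and 4.85.

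Some relatives fell. Among the active zone genes, 8 of 10 were called higher in each genotype, and Unc13b and Ppfia1 lower. In the SNARE cycle list, Snap23, the widely expressed relative of Snap25, fell by 1.77 in flox and 2.35 in KI. Cplx3, a complexin known from retina, fell by 4.47 in flox and 6.48 in KI. Vesicular transporters, which fill vesicles with transmitter, split. Slc17a6 (glutamate) rose by 7.58 and 8.94 and Slc32a1 (GABA and glycine) by 2.32 and 2.67. Slc17a7, Slc17a8 and Slc18a2 were called lower in both genotypes.

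Markers of the cells in the cultures moved over the same days. Of 10 neuron markers, 8 were called higher and 1 (Nefm) lower in flox, and 9 higher and 1 lower in KI, with medians of 1.27 and 2.52. Their summed level went from 2282 to 2284 CPM at day 8 to 4763 to 4973 CPM at day 16 in flox, and from 1414 to 1665 CPM to 7019 to 7682 CPM in KI. Of 8 progenitor markers, 7 fell in each genotype and Fabp7 rose. Of 5 neuroendocrine markers, whose cells also hold release machinery, all 5 rose in both. The 6 astrocyte markers summed to 90.1 to 91.1 CPM at day 8 and 382 to 413 CPM at day 16 in flox, and to 104 to 114 CPM and then 286 to 303 CPM in KI. The 4 mesothelium markers summed to 116 to 117 CPM and then 85.7 to 87.2 CPM in flox, and to 58.3 CPM and then 5.0 to 8.0 CPM in KI. The part of cell composition in the rise of the presynaptic genes was not tested.

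At day 8 the KI cultures had less of several release genes than flox. Of the 33 genes, 13 were called lower in KI and 4 higher, beside 13.2% of all genes called lower and 6.3% called higher, and 16 were not called. The median log2 difference (KI over flox) was -0.29, beside 0.00 over all genes. In CPM, before TMM scaling, both KI libraries lay below both flox libraries for 20 genes and above them for 6, beside 37.7% and 27.2% of all genes tested. The largest decreases were in Synpr, at 0.88 and 0.68 CPM in flox and 0.41 and 0.31 CPM in KI (log2 difference -1.08 ± 0.27, adjusted p = 0.015), in Syt7, and in Syt1. Syt7, a slow calcium sensor, was at 59.3 and 59.8 CPM in flox and 31.0 and 26.5 CPM in KI (-1.02 ± 0.11, adjusted p = 2.7e-05). For the core genes the differences were -0.88 ± 0.10 for Syt1, -0.80 ± 0.09 for Snap25, -0.47 ± 0.12 for Stx1a and -0.31 ± 0.09 for Vamp2, all called. They were -0.30 ± 0.13 for Syn1 and -0.17 ± 0.09 for Syp, which did not pass (adjusted p = 0.15 and 0.25).

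The 4 genes higher in KI at day 8 were Sv2b, Unc13c, Doc2a and Vamp1. Sv2b, a glycoprotein of vesicles, was at 1.9 and 1.9 CPM in flox and 14.3 and 12.9 CPM in KI, a difference of 2.86 ± 0.14 (adjusted p = 9.1e-08). Unc13c, a Munc13 best known in cerebellum, was at 1.5 and 1.4 CPM in flox and 4.5 and 2.6 CPM in KI (1.29 ± 0.24, adjusted p = 0.0020). Doc2a differed by 0.43 ± 0.10 and Vamp1 by 0.42 ± 0.11. Among the other presynaptic genes 6 of 55 were higher and 20 lower, with Slc17a8 (3.31), Stxbp5l (2.59) and Cplx3 (1.54) the highest.

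The 2 flox day 8 libraries differed from each other less than any other pair, and the difference was close to sampling noise (chi-square over its degrees of freedom 1.50, beside 2.76 to 54.8 in the other same-group pairs). The count of 17 called genes at day 8 was 9 without flox 1, 11 without flox 2 and 11 without KI 48. Called under every alternative were 7 genes: Snap25, Syt1, Syt7, Sv2a, Sv2b, Unc13a and Unc13c. Of 10 neuron markers 8 were also called lower in KI at day 8, with a median of -0.70. The summed level of 4 mesothelium markers was 116 to 117 CPM in flox and 58.3 CPM in both KI libraries, and that of 6 extraembryonic endoderm markers 107 to 108 CPM and 28.3 to 31.7 CPM. Their part in the difference was not tested.

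At day 16 the direction was the other way. KI exceeded flox in 30 of the 33 genes and none was called lower (30 at an unadjusted p under 0.05, and 30 by DESeq2), beside 27.1% of all genes called higher and 19.7% called lower. The median difference was 0.61, beside 0.09 over all genes. In CPM both KI libraries lay above both flox libraries for 28 genes and below them for 1, beside 24.3% and 44.3% of all genes tested. The largest increases were those of Snap25 (1.27 ± 0.09, adjusted p = 7.6e-07), Sv2b (1.26 ± 0.11, adjusted p = 4.5e-06) and Syt2 (1.18 ± 0.12, adjusted p = 1.3e-05). Syt2, the fast sensor of brainstem and spinal synapses, was at 28.1 and 28.99 CPM in flox and 52.5 and 59.7 CPM in KI. Sv2b was at 11.8 and 10.3 CPM in flox and 24.002 and 21.99 CPM in KI. None of these values overlapped between genotypes.

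The other core genes were higher by 0.83 ± 0.09 (Syp), 0.74 ± 0.12 (Syn1), 0.65 ± 0.09 (Syt1), 0.53 ± 0.09 (Vamp2) and 0.46 ± 0.11 (Stx1a). By class, all 3 synapsins, all 4 SNARE genes, both complexins, all 3 Rab3 genes and Snph were called higher. So were 5 of the 6 synaptotagmin and Doc2a genes, 6 of 7 vesicle membrane genes and 6 of 7 active zone and priming genes. The 3 genes not called were Doc2a (0.21 ± 0.10), Bsn (0.25 ± 0.16) and Synpr (-0.01 ± 0.14). Synpr was at 15.97 and 13.3 CPM in flox and 12.7 and 12.6 CPM in KI. The call was kept under every alternative in 24 of the 30 genes. Cplx2, Rab3c, Rims2, Syt7, Unc13a and Unc13c lost it in at least 1, each with a difference of at most 0.63. The single libraries whose omission did so were flox 1 (Cplx2, Syt7), flox 2 (Rab3c, Unc13c), KI 27 (Cplx2, Rab3c) and KI 48 (Rab3c, Syt7, Unc13a, Unc13c).

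**Figure D3:**
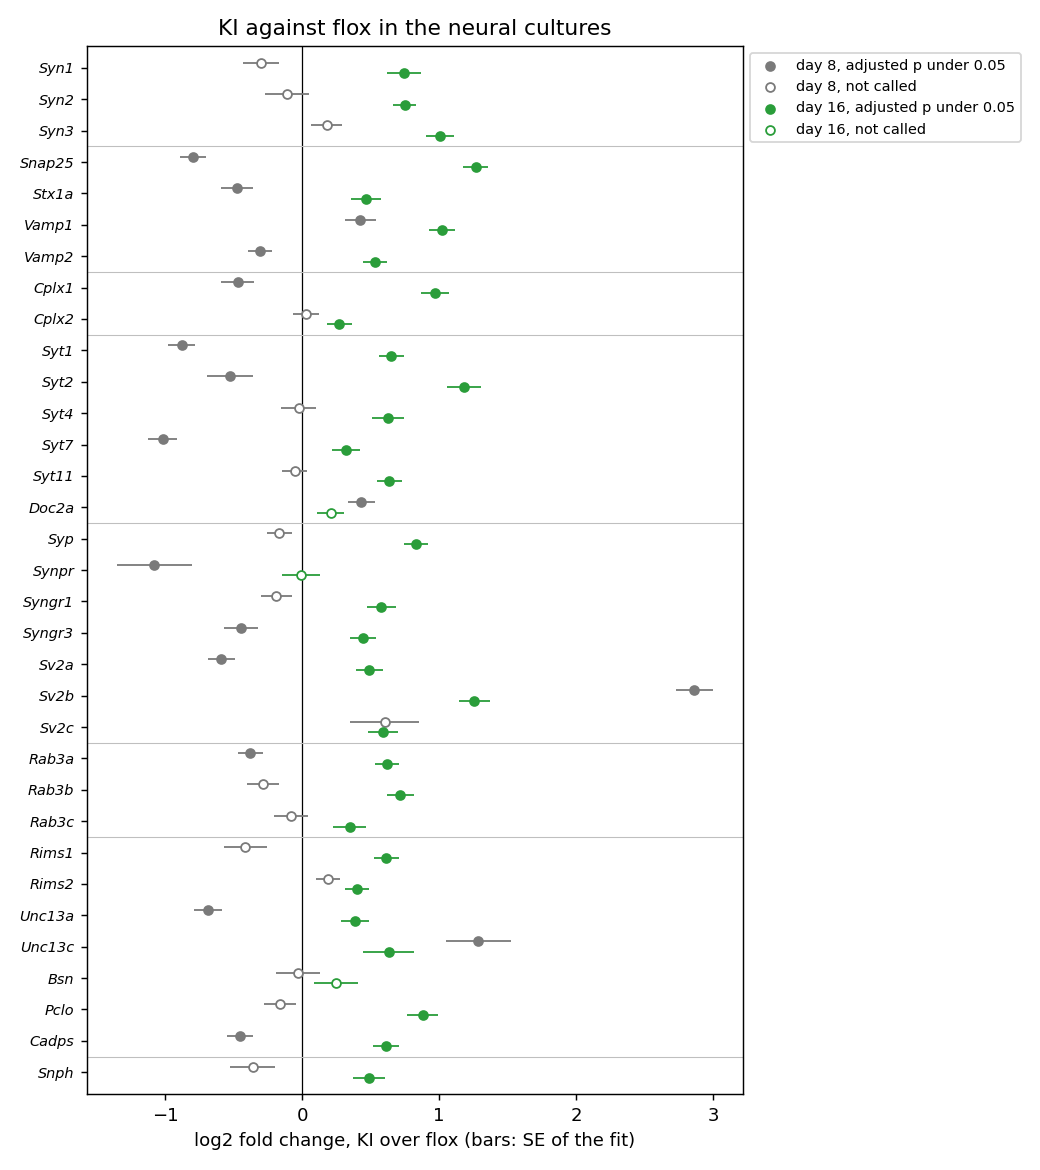
Log2 fold change of KI over flox for the 33 genes at day 8 (grey) and day 16 (green), with the SE of the fit as bars; filled points passed the test and open ones did not. At day 8, 13 genes lie below 0 and 4 above among the filled points; at day 16 all 30 filled points lie above 0.

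At day 16, 34 of 55 were called higher in KI and 6 lower. Of Rest and its cofactors 3 of 6 were lower (Rest -1.03, Rcor2 -1.05, Rcor1 -0.67). Of 10 vesicle recycling genes 9 were higher, and of 9 SNARE cycle genes 8. Of the transporters, Slc17a6 was higher by 1.64 and Slc32a1 by 0.45, while Slc17a7 and Slc18a3 were lower. All 10 neuron markers were called higher in KI at day 16, with a median of 0.71.

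Markers of other cells were unequal too. The 4 mesothelium markers were all called lower in KI at day 16, and their summed level was 85.7 to 87.2 CPM in flox and 5.0 to 8.0 CPM in KI. Gfap, the intermediate filament of astrocytes, was at 19.9 and 24.02 CPM in flox and 1.6 and 1.6 CPM in KI. Of 5 astrocyte markers tested, 3 were lower and 2 higher in KI, and the summed level of all 6 was 382 to 413 CPM in flox and 286 to 303 CPM in KI. The 6 endoderm markers summed to 75.9 to 76.9 CPM in flox and 10.5 to 20.5 CPM in KI. All 5 neuroendocrine markers were called higher, with sums of 584 to 594 CPM in flox and 823 to 857 CPM in KI. Of 8 progenitor markers 4 were lower and 1 higher, with sums of 948 to 960.1 CPM and 734 to 817 CPM. Of 4 oligodendrocyte markers 1 was lower, with sums of 49.2 to 53.3 CPM and 18.3 to 20.7 CPM. The part of these markers in the genotype difference was not tested.

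The change from day 8 to day 16 itself differed between genotypes. This test uses the same 8 libraries as the 4 comparisons above, so its values stand beside theirs and are not a separate line of evidence. It was larger in KI for 25 of the 33 genes and smaller for 1, beside 19.2% and 14% of all genes, with a median of 0.89 on the log2 scale. The largest differences of the day change were those of Snap25 (2.07 ± 0.13, adjusted p = 1.0e-06), Syt2 (1.71 ± 0.21) and Syt1 (1.53 ± 0.14). For the other core genes they were 1.04 ± 0.18 (Syn1), 1.00 ± 0.13 (Syp), 0.94 ± 0.16 (Stx1a) and 0.84 ± 0.13 (Vamp2). Sv2b alone was called the other way, at -1.61 ± 0.18 (adjusted p = 4.1e-05). Its KI level at day 8 was 14.3 and 12.9 CPM, above both flox libraries of day 16. The 7 genes not called were Cplx2, Doc2a, Sv2c, Rab3c, Rims2, Unc13c and Bsn. Of the 26 calls, 22 were kept under every alternative. Vamp1 lost it without the day 8 library of flox 2, Snph without that of flox 2 or KI 48, and Synpr and Syt4 without that of flox 1 or KI 48. All 10 neuron markers had a larger day change in KI, with a median of 1.40.

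Outside the neural cultures most of these genes were low. In 32 of 33 genes all 4 day 16 neural libraries lay above all 29 other libraries, Doc2a being the exception, and in 17 the 4 day 8 libraries did too. Of all genes tested in the neural fit, 20.8% met the first criterion and 10.9% the second. The median over the 29 libraries was under 1 CPM in 11 genes, and 13 genes had 3 or fewer reads in at least 1 library. The widest gap was in Rab3c, at 338 to 441 CPM at day 16 and at most 1.33 CPM elsewhere. Libraries labelled as poly(A) RNA (stem cell, embryoid body, neural) and as total RNA (the rest) meet in these ranges, and no test here mixes them.

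**Figure D4:**
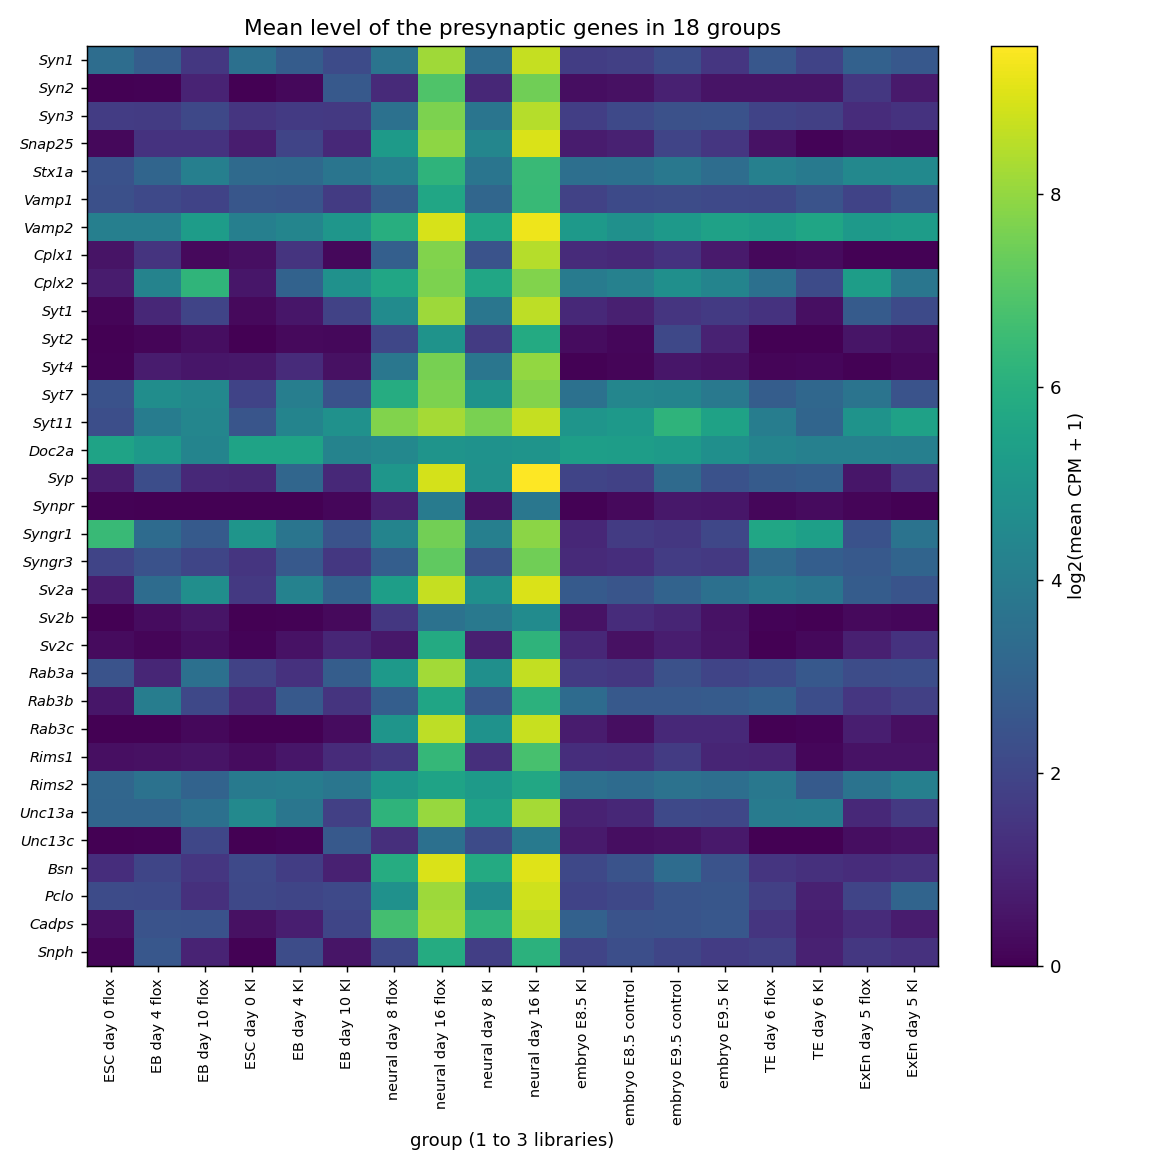
Mean level of the 33 genes in the 18 groups, as log2(mean CPM + 1); groups hold 1 to 3 libraries. The 2 columns of neural day 16 are the brightest for all genes but Doc2a and Sv2b, and Vamp2, Stx1a, Rims2, Syt11 and Doc2a have signal in most groups.

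Several genes were nonetheless well counted in other cells. Vamp2 was at 15.7 to 50.8 CPM in the 29 libraries, Stx1a at 4.23 to 24.04 CPM and Doc2a at 16.4 to 47.6 CPM. Syngr1 was at 86.7 CPM in the flox stem cell library and at 29.7 and 31.1 CPM in KI stem cells, and at 37.5 to 49.3 CPM in trophectoderm. Cplx2 was at 74.2 CPM in the flox day 10 embryoid body library, above the 4 neural day 8 libraries, and at 29.3 and 25.6 CPM in KI. Sv2a was at 25.2 CPM in that flox library and at 3.9 and 9.8 CPM in KI. Unc13a was at 7.6 CPM in flox stem cells and 21.6 and 21.6 CPM in KI. Single days of flox have 1 library, so these pairs were not tested.

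Averaged over the 3 days of that course, 1 of 29 genes tested was called between KI and flox, Cplx2, which was lower in KI (-1.26 ± 0.16), beside 0.306% of all genes called lower and 0.4% higher. The unadjusted p was under 0.05 in 7 of the 29, and DESeq2 called 4. The shares over all genes by these criteria are not given here. The Cplx2 call was lost without the flox day 10 library and without any of 5 KI libraries (all but KI 48 of day 0). Within KI, 12 genes rose and 4 fell from stem cells to day 4, beside 26.5% and 23.8% of all genes. From day 4 to day 10, 11 rose and 15 fell, beside 36.7% and 36.6%. Cplx2 rose at both steps, from 0.42 and 0.55 CPM to 7.3 and 6.7 CPM and to 29.3 and 25.6 CPM (3.74 ± 0.21 and 1.89 ± 0.15). Snph went from 1 read in each KI stem cell library to 75 and 85 reads at day 4 and 9 and 11 at day 10, and Syn2 from 0 and 1 read to 3 and 4 and then 116 and 117 reads. The largest falls from stem cells to day 4 were those of Syngr1 (-1.44 ± 0.13) and Syn1 (-0.93 ± 0.18). After day 4, Cplx1 fell by 3.41 ± 0.56, while Unc13c went from 2 and 1 reads to 69 and 175 reads. Syn2 and Unc13c had 10 or more KI reads only at day 10. They passed the filter on low counts through the day where they are high. Syt2, Synpr, Sv2b and Rab3c were too low to be tested. Of the calls, 10 of 16 at the first step and 19 of 26 at the second were kept under every alternative. The 4 pluripotency markers summed to 2972 to 3174 CPM in KI stem cells, 1186 to 1251 CPM at day 4 and 12.4 to 23.0 CPM at day 10. The 6 endoderm markers went from 7.73 to 9.84 CPM to 93.2 to 102 CPM and to 1154 to 1331 CPM. At day 10 the 4 heart muscle markers summed to 1655 CPM in the flox library and 174 to 266 CPM in KI, and the 4 mesothelium markers to 452 CPM and 131 to 156 CPM. The 4 trophoblast markers summed to 16.4 to 17.8 CPM in KI stem cells. In KI embryoid bodies they summed to 317 to 365 CPM at day 4 and 161 to 224 CPM at day 10. The part of these markers in the results was not tested.

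In trophectoderm cultures 26 of the 33 genes passed the filter on low counts. In KI, 9 were called lower than flox and 1 higher, beside 24.2% and 26.7% of all genes, and the median difference was -0.21. Rims1 was at 0.78 and 1.07 CPM in flox and at 0.07 and 0.15 CPM in KI (2 and 4 reads). Its log2 difference was -3.001 ± 0.76 (adjusted p = 0.0045). In the fit, which also held the endoderm cultures, only the 2 trophectoderm flox libraries had 10 or more reads of Rims1. It thus passed the filter through the group where it is high. Syt1 was at 1.97 and 1.31 CPM in flox and 0.36 and 0.29 CPM in KI (-2.27 ± 0.44, adjusted p = 0.00056). Vamp2 was higher in KI, at 43.7 and 50.8 CPM beside 37.6 and 39.9 CPM (0.32 ± 0.10, adjusted p = 0.014), a call lost without flox 1, without flox 2 and without KI 48. Without KI 27 the calls numbered 6 in place of 10. Marker lists differed between the genotypes too. Of 9 neuron markers tested, 4 were lower and 2 higher in KI, and all 10 summed to 135 to 139 CPM in flox and 41.4 to 47.0 CPM in KI. The 4 pluripotency markers were all lower (601 to 604 CPM in flox and 203 to 284 CPM in KI), and the 8 progenitor markers summed to 613 to 619 CPM and 258 to 329 CPM. The 4 trophoblast markers summed to 173 to 175 CPM in flox and 248 to 256 CPM in KI. Their part in the result was not tested.

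In extraembryonic endoderm cultures 26 genes passed the filter, 5 were called higher in KI and 3 lower, beside 18.1% and 17.4% of all genes. Syp was at 0.34 and 0.66 CPM in flox and 2.39 and 1.31 CPM in KI (1.86 ± 0.47, adjusted p = 0.0064), and Pclo at 2.52 and 3.22 CPM in flox and 7.36 and 7.63 CPM in KI (1.36 ± 0.41, adjusted p = 0.021). Cplx2 was at 38.8 and 39.3 CPM in flox and 11.7 and 13.1 CPM in KI (-1.69 ± 0.14, adjusted p = 5.3e-07). Syn2 was at 2.08 and 1.74 CPM in flox and 0.66 and 0.56 CPM in KI (-1.68 ± 0.60, adjusted p = 0.041). All 6 endoderm markers were lower in KI, with a sum of 807 to 823 CPM in flox and 188 to 205 CPM in KI. Of 9 neuron markers tested, 5 were higher and 3 lower in KI, while the sum of all 10 was 167 CPM in both flox libraries and 111 to 124 CPM in KI. The 8 progenitor markers summed to 2052 to 2109 CPM in flox and 1216 to 1760 CPM in KI. Their part in the result was not tested. Leaving out any of the 4 libraries left 5 calls. Syp lost its call without flox 1 and without KI 27, Pclo without flox 1, flox 2 or KI 48, and Syn2 without any of the 4. In both kinds of culture Snap25, Cplx1, Syt2, Syt4, Synpr, Sv2b and Unc13c were below the filter. Cplx2 was lower in KI in trophectoderm as well, at 11.4 and 9.75 CPM in flox and 3.20 and 3.88 CPM in KI (-1.54 ± 0.16).

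In the embryos 32 of the 33 genes were tested, Syt4 being too low. At E8.5, 1 gene was called between KI and control embryos, beside 1.83% of all genes called lower and 3.63% higher. Syt7 was at 21.5, 20.0 and 17.2 CPM in controls and at 12.1, 10.6 and 9.92 CPM in KI, with no overlap (-0.85 ± 0.13, adjusted p = 0.00044). Same-numbered embryos at E8.5 deviated together, and with the title number as a replicate block 3 genes were called. The added genes were Rab3b, at 3.93, 6.77 and 5.53 CPM in controls and 10.3, 8.04 and 8.85 CPM in KI, and Vamp2, at 21.3, 34.2 and 23.9 CPM and 27.8, 37.9 and 35.5 CPM. The unadjusted p was under 0.05 in 6 of the 32 genes, and the share over all genes at that threshold is not given here. The 4 trophoblast markers summed to 152 to 198 CPM in controls and 301 to 337 CPM in KI at E8.5, and the 4 heart muscle markers to 425 to 675 CPM and 719 to 1135 CPM, without overlap. Their part in the differences was not tested.

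At E9.5, 10 genes were called lower in KI and 1 higher, beside 14.9% and 14.6% of all genes, and 21 were not called. The median log2 difference was -0.43, beside 0.01 over all genes. In CPM all 3 KI embryos lay below all 3 controls for 14 of the 32 genes and above them for 2, beside 21.4% and 22.6% of all genes tested. Syt2 had the largest decrease, at 2.66, 4.75 and 2.24 CPM in controls and 0.66, 0.86 and 1.15 CPM in KI (-1.85 ± 0.50, adjusted p = 0.0083). It lost its call without control 2 (adjusted p = 0.081). Cplx1 was at 1.95, 1.93 and 1.07 CPM in controls and 0.50, 0.43 and 0.97 CPM in KI (-1.39 ± 0.45, adjusted p = 0.026). Its groups did not overlap, but control 3 and KI 3 lay close together. Control 3 and KI 3 share a number in their titles, and the other E9.5 embryos share another. The Cplx1 call was lost without control 1, control 2, KI 1 or KI 2.

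Of the core genes, Syp was at 7.62, 11.3 and 7.29 CPM in controls and 4.14, 4.76 and 3.98 CPM in KI (-1.03 ± 0.26, adjusted p = 0.0055). Syn1 was at 4.49, 4.64 and 2.33 CPM in controls and 1.86, 2.02 and 1.77 CPM in KI (-1.02 ± 0.30, adjusted p = 0.016). Stx1a was at 11.0, 12.7 and 15.9 CPM in controls and 10.0, 9.27 and 9.99 CPM in KI (-0.44 ± 0.16, adjusted p = 0.047). All 3 pairs of groups were separate. The Stx1a call was lost without any of control 2, control 3 and the 3 KI embryos, and that of Syn1 without control 1, control 2 or KI 3.

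Snap25 was at 3.02, 2.97 and 2.60 CPM in controls and 1.62, 1.76 and 2.17 CPM in KI, without overlap, but did not pass (-0.63 ± 0.38, adjusted p = 0.22). Syt1 at 1.16 to 2.30 CPM in controls and 1.68 to 2.57 CPM in KI overlapped (0.23 ± 0.46, adjusted p = 0.75). Vamp2 was at 33.0, 36.5 and 33.0 CPM in controls and 38.3, 41.2 and 49.0 CPM in KI (0.32 ± 0.16, adjusted p = 0.15). The gene called higher was Sv2a, at 6.27, 8.42 and 6.89 CPM in controls and 9.48, 9.52 and 12.3 CPM in KI (0.53 ± 0.18, adjusted p = 0.035). Its call was lost without control 1, control 3, KI 2 or KI 3. Calls under every alternative were those of Bsn, Syp, Syt11, Syt7, Cplx2 and Doc2a, and without control 2 the calls numbered 7 in place of 11.

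**Figure D5:**
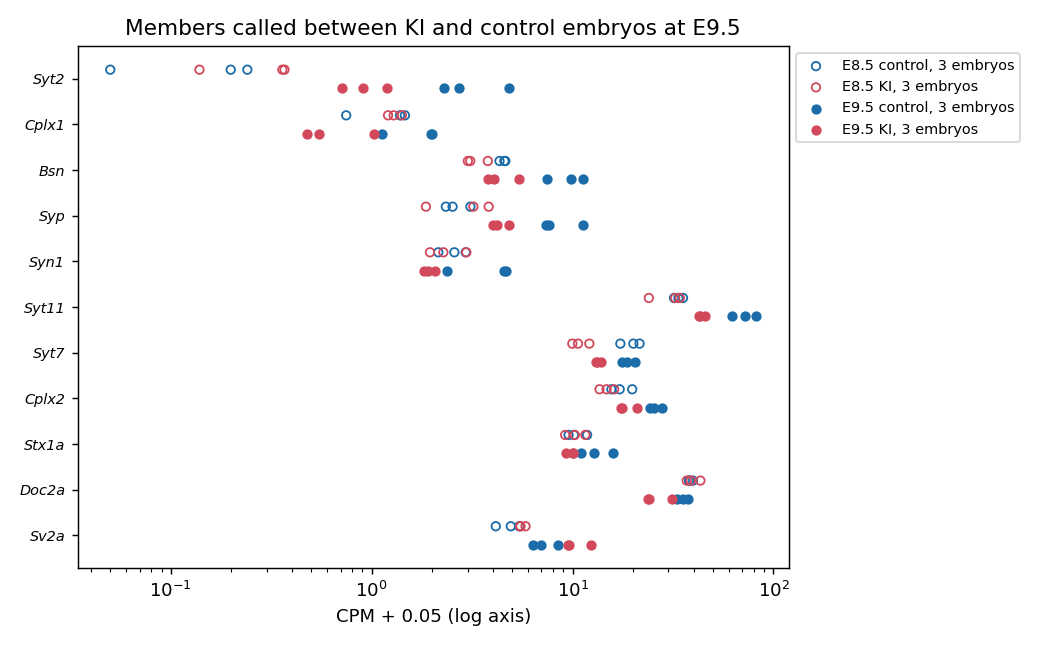
CPM + 0.05 on a log axis for the 11 genes called between KI and control embryos at E9.5, with 1 point per embryo; filled points are E9.5, open points E8.5, blue control and red KI. At E9.5 all KI points lie left of the control points in 10 genes and right of them in Sv2a.

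Other presynaptic genes did not share a direction at E9.5, with 8 of 50 called higher and 7 lower (median -0.17). These counts lie near the background over all genes, 14.6% for increases and 14.9% for decreases, and do not set this list apart. Of 10 neuron markers 9 were called lower in KI (median -1.76), and their summed level was 337 to 493 CPM in controls and 135 to 141 CPM in KI. Of 8 progenitor markers 6 were lower. All 4 heart muscle markers were higher, at 256 to 324 CPM in controls and 648 to 1225 CPM in KI when summed. The 4 trophoblast markers summed to 38.1 to 90.9 CPM in controls and 174 to 177 CPM in KI, with 1 called higher. Of 6 extraembryonic endoderm markers 3 were higher, with sums of 115 to 123 CPM and 278 to 349 CPM. Of 3 mesothelium markers tested 2 were higher, and all 4 summed to 32.4 to 51.8 CPM and 63.4 to 82.9 CPM. Of 4 neuroendocrine markers tested 2 were lower, and all 5 summed to 13.6 to 17.6 CPM and 5.04 to 7.79 CPM. Rest was higher by 0.44. These are whole embryos, and the part of cell composition in the difference was not tested.

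From E8.5 to E9.5, 10 of 32 genes rose and none fell in controls (11 at an unadjusted p under 0.05, all higher, and 10 calls by DESeq2), beside 12.2% and 12.1% of all genes, and 9 rose and 2 fell in KI, beside 15.9% and 16.6%. Syt2 went from 0, 4 and 4 reads to 67, 128 and 50 reads in controls, and from 7, 7 and 2 to 16, 20 and 26 reads in KI. Rab3c, a vesicle GTPase, rose by 1.93 ± 0.58 in controls with a value of 0.70 ± 0.53, not called, in KI. Syp rose by 1.67 ± 0.27 in controls, and its value in KI was 0.49 ± 0.27, not called. Snap25 rose by 1.67 ± 0.40 in controls and 1.45 ± 0.41 in KI. In KI, Synpr had 0, 0 and 2 reads at E8.5 and 4, 11 and 19 reads at E9.5, and Rab3b (-0.72 ± 0.24) and Doc2a (-0.66 ± 0.11) fell. In controls 6 of the 10 calls and in KI 6 of the 11 were kept under every alternative. Rab3c lost its call without E8.5 control 2 or 3 or E9.5 control 2, and Rab3b without E8.5 KI 1 or E9.5 KI 2 or 3. Synpr lost it without E9.5 KI 3, and Syt2 in KI without E8.5 KI 3 or E9.5 KI 2 or 3. The 10 neuron markers summed to 114 to 130 CPM at E8.5 and 337 to 493 CPM at E9.5 in controls, and to 121 to 128 CPM and then 135 to 141 CPM in KI. The 8 progenitor markers summed to 776 to 901 CPM and then 1467 to 1830 CPM in controls, and to 885 to 973 CPM and then 1235 to 1322 CPM in KI. The 4 heart muscle markers went from 425 to 675 CPM to 256 to 324 CPM in controls, and from 719 to 1135 CPM to 648 to 1225 CPM in KI. The 4 trophoblast markers summed to 152 to 198 CPM and then 38.1 to 90.9 CPM in controls. In KI they summed to 301 to 337 CPM and then 174 to 177 CPM. The 6 extraembryonic endoderm markers summed to 192 to 335 CPM and then 115 to 123 CPM in controls. In KI they summed to 216 to 386 CPM and then 278 to 349 CPM. The part of these markers in the stage change was not tested. The stage change differed between KI and control in 2 of 32 genes, beside 3.39% of all genes called larger and 3.24% smaller: Syngr1 (1.60 ± 0.48) and Syt11 (-0.57 ± 0.16). For Syp the difference was -1.18 ± 0.38 and did not pass.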

How the data were processed

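RNA tables of 37 libraries of cultured mouse cells and embryos were used. The other 63 samples of the series were not analysed here, among them 1 RNA sample of Mll3-/-;Mll4-/- cells at neural day 8. The authors deposited, per the file headers, a read count and an RPKM for each of 29082 transcripts in every library. Per the submitters' processing notes, bcl2fastq, Bowtie2, STAR, SICER 1.1 and the mm9 build were used in the series, without a stated role for each. The counter and the use of strand are not given in the sources used here. Accessions were matched to symbols with the RefSeq table (28436 matched, 646 not), and the transcript with most reads stood for its gene. CPM is the count per 1000000 gene-level reads. The deposited RPKM was used only to compare levels between genes.

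Groups were compared with edgeR 4.0.16 (quasi-likelihood test, TMM, minimum count 10) under R 4.3.3, fitted over all genes of a culture system or of the 12 embryos, and Benjamini-Hochberg adjusted p under 0.05 was called. Tested on simulated data, edgeR recovered 94.9% of 2-fold changes in the neural flox fit, 76.3% in endoderm, 74.7% at E9.5, 57.9% from day 4 to day 10 of KI embryoid bodies and 55.2% in the averaged course. Of its calls there, 4.02%, 10.3%, 6.74%, 12.8% and 10.1% were false. Only 199 of 16139 genes were changed in the simulated neural flox data, while 12678 of 16439 were called in the real data. The simulated counts were drawn with the spread that edgeR had estimated. These rates need not hold for the real comparisons. Each SE, also as bars, is the absolute log2 fold change over the square root of the F statistic of the edgeR test. DESeq2 1.42.0, RLE scaling, no filter, summed transcripts, replicate blocks and leaving out each library were alternatives. Shares over all genes that stand beside calls are those of the main edgeR calls, and none is given for unadjusted p-values or alternatives. The members and lists were chosen with earlier results of these data known. Always named were 6 core genes (Syn1, Snap25, Syp, Syt1, Stx1a, Vamp2) in the neural and E9.5 comparisons, and the called genes with the largest changes, up to 3 per direction in neural and 2 in other comparisons. Other genes were chosen after their values were seen. Same-numbered embryos at E8.5 deviated together (correlations of 0.298, 0.349 and 0.151), and the culture numbers in the titles were read as line numbers, which the labels do not state.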

Additional observations from a re-analysis of the deposited data

Results flagged for a closer look

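The change from day 8 to day 16 of neural culture differed between KI and flox by a test of the difference itself in 26 of the 33 genes. It was larger in KI in 25 and smaller in 1, beside 19.2% and 14% of all genes. The log2 difference (KI minus flox) was 1.04 for Syn1, 0.86 for Syn2 and 0.83 for Syn3 among the synapsins. For the SNARE genes it was 2.07 (Snap25), 0.94 (Stx1a), 0.60 (Vamp1) and 0.84 (Vamp2), and for Cplx1 it was 1.44. The synaptotagmins had 1.53 (Syt1), 1.71 (Syt2), 0.65 (Syt4), 1.34 (Syt7) and 0.69 (Syt11). Vesicle membrane genes had 1.00 (Syp), 1.07 (Synpr), 0.77 (Syngr1), 0.89 (Syngr3) and 1.08 (Sv2a), and Sv2b went the other way at -1.61. Rab3a and Rab3b had 1.00 each. At the active zone the values were 1.03 (Rims1), 1.08 (Unc13a), 1.04 (Pclo) and 1.07 (Cadps), and Snph had 0.85.

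In embryos the change from E8.5 to E9.5 differed between KI and control by the same kind of test for Syngr1 (1.60) and Syt11 (-0.57). These are 2 of the 32 genes tested, a share near the background of 3.39% of all genes called larger and 3.24% smaller. Neither was called under all alternatives.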

How the results depend on the processing

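The day 16 against day 8 counts of 33 were also 33 under DESeq2, RLE scaling, no filter, summed transcripts and the replicate block in both genotypes, and 32 to 33 in KI without single libraries. Where KI and flox were compared, leaving out single libraries gave 9 to 13 calls at neural day 8, 6 to 11 in trophectoderm and 5 in each case in endoderm. At E8.5 it gave 1 to 2 calls, at E9.5 7 to 10, for the embryo stage difference 0 to 2 and for the averaged embryoid body course 0 to 2. At E8.5 DESeq2 called 2 genes and the replicate block 3. For the stage difference DESeq2 called 5, RLE scaling 1, no filter 1 and summed transcripts 1. For the averaged course DESeq2 called 4. Its median of -0.0341 became 0.0217 without the filter and ranged from -0.0911 to 0.1045 without single libraries, above 0 without any day 10 library. Syt1 at E9.5 ranged from -0.0011 (without control 3) to 0.4357. The cause of these shifts was not tested. The replicate block gave 27 calls for the neural difference of day changes, 13 at E9.5, 15 for day 4 and 25 for day 10 of KI embryoid bodies, and moved no other count by over 1.5 times. Neural same-numbered libraries correlated at 0.099 (flox) and 0.275 (KI), with 2 pairs each. Leaving out a library of a pair assumes that the lone one varies like the others. Outside neural cultures low counts kept 7 of the 33 genes from being tested in trophectoderm and endoderm, 4 in embryoid bodies and 1 in embryos. The median over the libraries there was under 1 CPM in 11 genes.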
